A study of Mus musculus with 13 samples.

Results

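The genes described here encode the proteins of the cytosolic ribosome. They were chosen by name: protein-coding genes whose symbol is Rpl or Rps with a number and at most a short suffix, together with Rplp0, Rplp1, Rplp2 and Rpsa. The rule found 84 genes among 21887 protein-coding genes of the mouse, of which 52 belong to the large ribosomal subunit and 32 to the small one. No binding value was used to choose them.

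The cytosolic ribosome joins a small subunit, which reads the mRNA, to a large subunit, which links the amino acids. Its proteins are made in matched amounts in nearly every growing cell, from short genes whose transcripts often begin in a run of pyrimidines and many of which carry small nucleolar RNA genes in their introns. BLIMP1 is the product of Prdm1, a DNA-binding zinc-finger protein known mainly as a repressor, and the plasmablast, one of the cells it helps to form, is a dividing antibody-secreting cell with a high rate of protein synthesis.

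Chromatin was precipitated through the GFP tag of BLIMP1 and sequenced, and the data are lists of peak summits, one list for each library and one position for each peak. All groups carried a homozygous EGFP knock-in at the N terminus of BLIMP1 on a C57BL/6 background, so no untagged control library entered the comparisons. Plasmablasts (PB) were GFP+ CD138+ cells from B cells given IL-4 and LPS for 3 days, photoreceptor precursors (PRP) were GFP+ cells of the retina at postnatal day 4, and embryonic intestinal epithelium (emIE) was GFP+ EPCAM+ at E16.5 (E, embryonic day). The germ-cell lineage was represented by day 2 PGC-like cells (d2 PGCLC, KIT+, cultured with LIF and BMP4), day 6 PGC-like cells (d6 PGCLC, sorted for SSEA1 and integrin beta-3, cultured with SCF, EGF, BMP8a, BMP4 and LIF), both made from knock-in embryonic stem cells through a 36 h step as epiblast-like cells, and E12.5 primordial germ cells (PGC, SSEA1+) of embryos obtained by sperm injection. Each cell type had 2 libraries, which for E12.5 PGC were 1 male and 1 female. The labels do not say that the 2 libraries came from separate cultures or animals, so spread between them may be technical. A summit list does not measure expression, and the cell type labels were not checked against marker genes. All cells of a library were pooled, so binding in fewer cells and weaker binding in every cell cannot be told apart.

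Binding in a cell type was called for a gene only if each of the libraries of that type placed a summit within 1 kb of an end of the gene. The lists held between 7998 and 76185 summits, with a median of 15822.5, and a longer list places more summits near any set of genes. The sources used here do not give read depth and calling threshold, and their part in the counts was not tested. For this reason the count of each cell type and of each library stands beside the same share of all protein-coding genes. All positions are those of mm10.

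Ribosomal protein genes were bound mostly in plasmablasts, where 72 of 84 had a summit in both libraries. This was 85.7% of the genes (95% Clopper-Pearson interval 76.4 to 92.4), against 39.7% of all protein-coding genes. In photoreceptor precursors 22 were bound, or 26.2% (17.2 to 36.9), against 9.68% of all genes. In intestinal epithelium 11 were bound, or 13.1% (6.72 to 22.2), against 7.29% of all genes. The share of ribosomal protein genes was thus 2.16 times that of all genes in plasmablasts, 2.71 times in photoreceptor precursors and 1.80 times in intestinal epithelium. The intervals cover counting error only and treat genes as independent.

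In the germ-cell lineage the counts were 10 genes in d2 PGCLC and 9 each in d6 PGCLC and E12.5 PGC. These were 11.9% (5.86 to 20.8) in d2 PGCLC against 8.41% of all genes, 10.7% (5.02 to 19.4) in d6 PGCLC against 9.72% of all genes, and 10.7% (5.02 to 19.4) in E12.5 PGC against 5.79% of all genes. In all 3 germ-lineage types, and in intestinal epithelium, the share of all genes lies inside the interval of the ribosomal protein genes. Among the 3 germ-lineage types the share was 1.42, 1.10 and 1.85 times that of all genes, in the order d2 PGCLC, d6 PGCLC and E12.5 PGC.

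**Figure D1:**
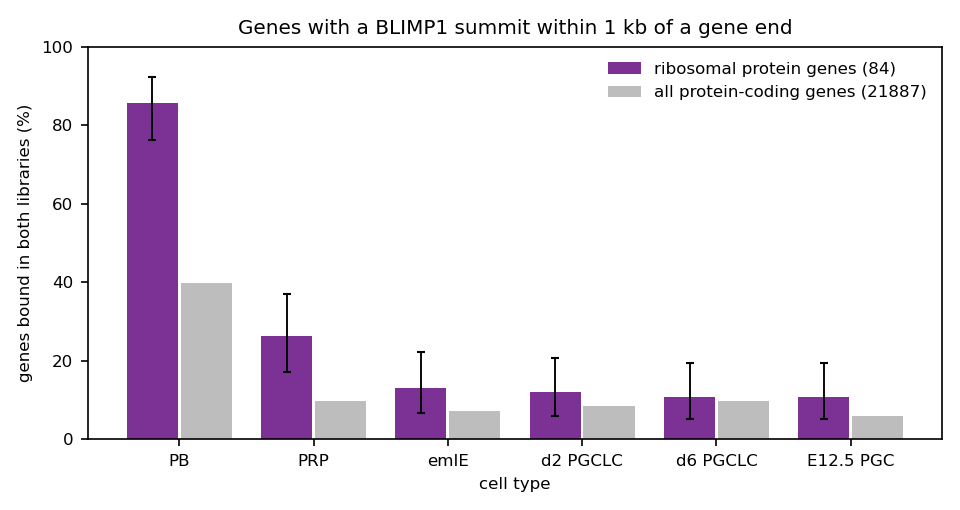
Percentage of the 84 ribosomal protein genes and of all protein-coding genes with a summit within 1 kb of a gene end in both libraries of each cell type, with 95% Clopper-Pearson intervals for the ribosomal protein genes. Plasmablasts stand at 85.7% against 39.7% of all genes, while in intestinal epithelium and the 3 germ-lineage types the interval of the ribosomal protein genes includes the share of all genes.

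A narrower window gave the same order at the top. Within 0.5 kb of a gene end, 62 genes were bound in plasmablasts (73.8%, against 31.9% of all genes) and 16 in photoreceptor precursors (19.0%, against 7.28%). Intestinal epithelium had 7 (8.33%, against 5.07%). Of the germ-lineage types, d2 PGCLC had 4 (4.76%, against 5.30%), d6 PGCLC had 5 (5.95%, against 5.90%) and E12.5 PGC had 5 (5.95%, against 3.81%). In both PGCLC types the share within 0.5 kb was at the level of all genes.

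The 2 libraries of a cell type could differ widely in their counts. The plasmablast libraries had a summit at 72 and 76 of the 84 genes, against 42.7% and 45.4% of all genes. The photoreceptor precursor libraries had 30 and 31, against 12.2% and 14.5% of all genes, and the intestinal libraries had 14 and 25, against 9.62% and 16.8%. In d2 PGCLC the libraries had 10 and 21, against 9.59% and 17.1% of all genes. In d6 PGCLC they had 43 and 9, against 35.9% and 10.4%, and in E12.5 PGC 12 (male) and 15 (female), against 7.90% and 11.3%. The library with 43 was d6 PGCLC replicate 1, which has the longest of all lists with 76185 summits. Replicate 2 of that type has 15411 summits, and its 9 genes, or 10.7% of the ribosomal protein genes, were at the level of all genes. Both plasmablast lists, with 40750 and 45122 summits, are shorter than that of d6 PGCLC replicate 1 and reached more of the ribosomal protein genes. They also reached more of all genes, 42.7% and 45.4% against 35.9%. The part of list length in these counts was not tested.

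With each list reduced to the length of the shortest, 7998 summits, the expected number of ribosomal protein genes bound in both libraries was 4.89 in plasmablasts and 9.58 in photoreceptor precursors. The corresponding shares were 5.82% in plasmablasts against 2.78% of all genes, and 11.4% in photoreceptor precursors against 4.67% of all genes. Intestinal epithelium had 7.49 genes (8.91%, against 5.18% of all genes). The expected number was 1.48 for d2 PGCLC (1.76%, against 1.63%), 0.614 for d6 PGCLC (0.731%, against 0.876%) and 2.84 for E12.5 PGC (3.38%, against 1.98%). At equal list length the expected count was highest in photoreceptor precursors, and that of plasmablasts stood below those of photoreceptor precursors and intestinal epithelium. Library by library, the expected number after the same reduction was 18.7 and 19.3 in plasmablasts, 22.3 and 18.3 in photoreceptor precursors, and 14 (the shortest list, as it stands) and 17.4 in intestinal epithelium. In the germ-lineage libraries it was 4.93 and 6.30 for d2 PGCLC, 5.17 and 4.92 for d6 PGCLC, and 8.26 (male) and 6.99 (female) for E12.5 PGC. Counted by library, plasmablasts thus stood above intestinal epithelium and within the range of photoreceptor precursors. Requiring both libraries lowers the count of longer lists more, since each list is reduced on its own, and summits are drawn at random whether strong or weak.

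**Figure D2:**
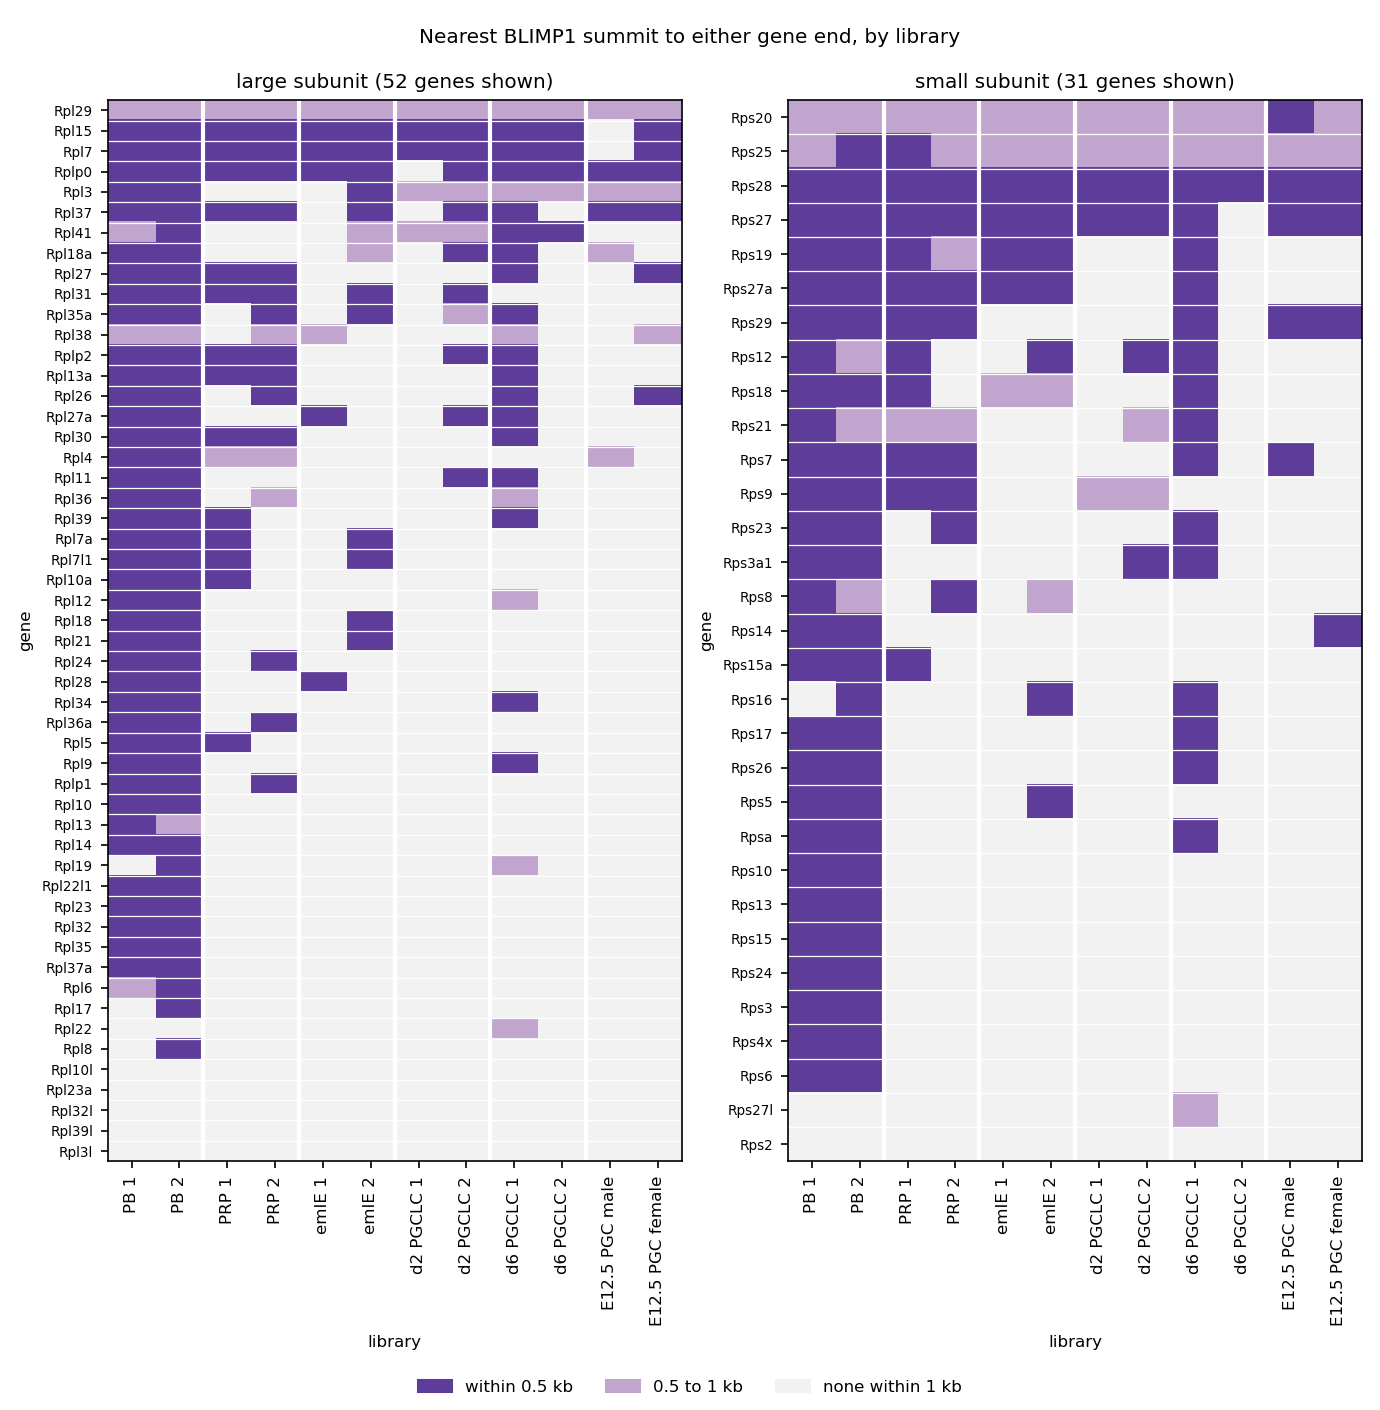
Summits at ribosomal protein genes in each of the 12 ChIP libraries, large subunit on the left and small subunit on the right, with genes ordered by the number of libraries that have a summit. Dark cells mark a nearest summit within 0.5 kb of a gene end, light violet cells one at 0.5 to 1 kb and pale cells none within 1 kb. The 2 plasmablast libraries, with 72 and 76 of all 84 genes, fill most of the plot, d6 PGCLC replicate 1 has 43, and the other 9 libraries have between 9 and 31.

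The promoters that the results turn on are shown first for genes bound in nearly every library, then for genes bound in plasmablasts alone, and last for a paralogue with no summit. Each sequence is the RefSeq promoter of GRCm38.p6, from 100 bases before the annotated start to base 20 of the transcript, written 5′ to 3′ on the strand of the gene. Capitals mark GAAAG, the core of the published BLIMP1 recognition sequence, and its reverse complement CTTTC. A match describes the letters only and shows no site of binding. Among the widely bound genes, Rps28 lies at chr17:33824543-33824662 on the minus strand and Rps2 at chr17:24719963-24720082 on the plus strand. Rps27 lies at chr3:90213629-90213748 on the minus strand, Rpl15 at chr14:18270967-18271086 on the minus strand and Rplp0 at chr5:115559367-115559486 on the plus strand.
Rps28: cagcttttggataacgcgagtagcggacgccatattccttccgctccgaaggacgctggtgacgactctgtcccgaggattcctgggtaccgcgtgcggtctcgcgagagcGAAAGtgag
Rps2: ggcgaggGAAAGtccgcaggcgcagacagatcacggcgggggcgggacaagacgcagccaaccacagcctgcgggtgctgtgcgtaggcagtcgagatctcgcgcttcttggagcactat
Rps27: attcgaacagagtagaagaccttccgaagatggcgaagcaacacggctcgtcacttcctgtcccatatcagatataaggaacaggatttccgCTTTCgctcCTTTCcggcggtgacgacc
Rpl15: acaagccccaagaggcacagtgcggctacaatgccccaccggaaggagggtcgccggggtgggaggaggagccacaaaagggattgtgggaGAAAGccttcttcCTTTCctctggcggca
Rplp0: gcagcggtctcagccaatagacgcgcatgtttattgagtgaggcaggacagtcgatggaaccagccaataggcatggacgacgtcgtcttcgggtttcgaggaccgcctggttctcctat
The number of the 12 libraries with a summit inside these stretches was 7 for Rps28, 9 for Rps2, 8 for Rps27, 1 for Rpl15 and 5 for Rplp0. Rps27 and Rpl15 carry CTTTC at the start of the transcript itself, at base 2 and base 5, and the Rplp0 stretch holds neither GAAAG nor CTTTC. The genes bound in plasmablasts only are Rps4x at chrX:102189372-102189491 and Rps3 at chr7:99483690-99483809, both on the minus strand. The paralogue with no summit, Rpl39l, lies at chr16:10170128-10170247 on the plus strand.
Rps4x: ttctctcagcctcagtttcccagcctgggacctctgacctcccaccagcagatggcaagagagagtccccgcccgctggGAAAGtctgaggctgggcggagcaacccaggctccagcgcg
Rps3: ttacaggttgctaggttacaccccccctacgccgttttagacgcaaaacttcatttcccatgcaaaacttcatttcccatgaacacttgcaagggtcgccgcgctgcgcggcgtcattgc
Rpl39l: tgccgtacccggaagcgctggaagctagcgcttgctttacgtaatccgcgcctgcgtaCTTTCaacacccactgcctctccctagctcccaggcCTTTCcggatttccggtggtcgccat
The number of libraries with a summit inside these stretches was 0 for Rps4x, 1 for Rps3 and 0 for Rpl39l. The plasmablast summits of Rps4x lay 30 and 36 bp after the start, beyond base 20. GAAAG or CTTTC stands in 4 of the 5 widely bound stretches, in Rps4x and in the unbound Rpl39l. The stretches are picked examples that leave out many of the summits, so no conclusion on the letters can be drawn from them.

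Grouped by the number of cell types in which they were bound, 12 ribosomal protein genes were bound in 0, 47 in 1, 10 in 2, 6 in 3, 1 in 4, 4 in 5 and 4 in all 6. The shares of all protein-coding genes in the same classes were 55.6%, 28.5%, 7.21%, 3.01%, 1.90%, 1.48% and 2.28%. All 47 genes of the single-type class were bound in plasmablasts, which is 56.0% of the ribosomal protein genes against 25.7% of all genes. Among genes bound in plasmablasts, 47 of 72 ribosomal protein genes were bound in no other type, a share similar to that of all genes (5628 of 8691). Every one of the 25 genes bound in another cell type was bound in plasmablasts too, whereas among all protein-coding genes 3063 of 4084 such genes were (75.0%). Bound in at least 1 cell type were 72 of the ribosomal protein genes, against 44.4% of all genes, and in at least 2 were 25, against 15.9%.

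**Figure D3:**
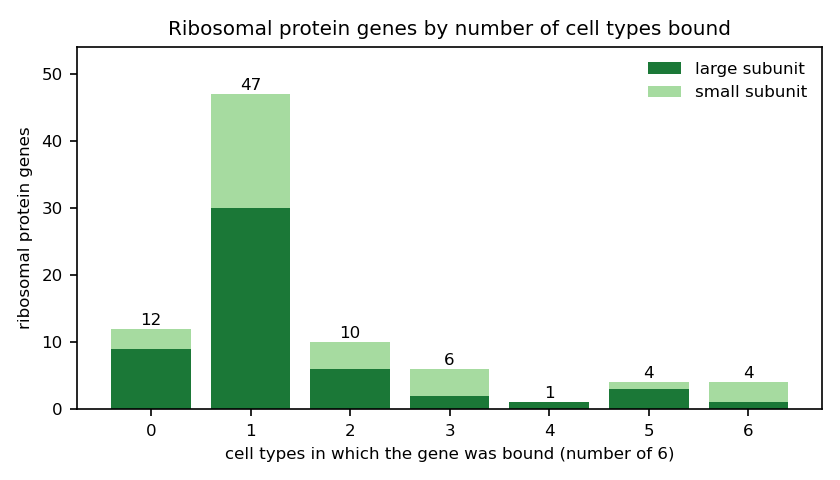
Number of ribosomal protein genes of the large and the small subunit bound in 0 to 6 of the 6 cell types, as stacked bars with the total above each. The class of 1 cell type holds 47 genes, 30 of the large and 17 of the small subunit, and all of them were bound in plasmablasts.

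The strictest form of plasmablast binding, a summit in both plasmablast libraries and in no other library, held for 16 ribosomal protein genes (19.0%, against 9.33% of all genes). Among genes bound in plasmablasts this was 16 of 72, a share similar to that of all genes (2043 of 8691). Rps3, whose product lines the mRNA entry of the small subunit, had summits 52 bp after and 55 bp before its start in the 2 plasmablast libraries. Rps4x, the X-linked copy of an RNA-binding protein of the small subunit, had them 30 and 36 bp after its start. Rps6, the substrate of S6 kinase, had them 113 and 212 bp after its start. In the other 10 libraries the nearest summit to each of these 3 genes was more than 1 kb away. Rpl10, an X-linked protein of the large subunit near the tRNA path, had plasmablast summits at 73 and 43 bp and none within 1 kb elsewhere.

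Rpl5 and Rpl11, which bind 5S rRNA together and can hold the p53 regulator MDM2, were likewise bound in plasmablasts only. Rpl5 had summits at 21 and 28 bp in the 2 plasmablast libraries, and photoreceptor precursor replicate 1 had one at 23 bp. Rpl11 had them at 27 and 36 bp in plasmablasts, and d2 PGCLC replicate 2 and d6 PGCLC replicate 1 had summits at 10 and 146 bp. In each of these other cell types only 1 of the 2 libraries listed a summit. Rpl35a, a large-subunit protein, and Rps12, a small-subunit protein, had a summit in 6 libraries each but were bound in plasmablasts only. At Rpl35a the plasmablast summits lay 101 and 57 bp from the nearer end, and at Rps12 they lay 67 and 921 bp from it. At Rps12 the nearer end differed between the libraries, with summits 107 bp before and 1105 bp after the start. By start Rps12 was bound in 0 cell types. Both genes had 1 further library each in photoreceptor precursors, intestinal epithelium, d2 PGCLC and d6 PGCLC. Such single-library summits separate the 47 genes bound in plasmablasts only from the 16 that no other library listed.

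Both subunits were bound most in plasmablasts. In plasmablasts 43 of 52 large-subunit genes were bound (82.7%, interval 69.7 to 91.8), as were 29 of 32 small-subunit genes (90.6%, 75.0 to 98.0). In photoreceptor precursors there were 11 large-subunit genes (21.2%, 11.1 to 34.7) and 11 small-subunit genes (34.4%, 18.6 to 53.2). In the remaining types the large and small counts were 4 and 7 in intestinal epithelium, 5 and 5 for d2 PGCLC, 6 and 3 for d6 PGCLC, and 4 and 5 for E12.5 PGC. In plasmablasts and photoreceptor precursors the intervals of the 2 subunits overlap.

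The genes bound in all 6 cell types were Rps28, Rps25, Rps20 and Rpl29, which is 4.76% of the ribosomal protein genes against 2.28% of all genes. They differed in where the summits lay. Rps28 encodes a small-subunit protein near the mRNA exit. Its summits lay at its start in every library, at 21 and 36 bp after the start in plasmablasts, 12 bp after and 35 bp before it in photoreceptor precursors, and 18 and 28 bp after it in intestinal epithelium. The germ-lineage summits lay 1 and 104 bp after the start in d2 PGCLC, 14 and 32 bp before it in d6 PGCLC, and 2 (male) and 26 bp (female) after it in E12.5 PGC. The 12 summits formed 1 site of 139 bp, and the end of Ndufa7, which encodes a subunit of respiratory complex I, lies 10 bp from Rps28.

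Rps25 encodes a protein of the small-subunit head that some viral RNAs need to recruit the ribosome. Its shared site, chr9:44406955-44407078, lay 698 bp before the start and held a summit of all 12 libraries. The nearest summits to the start lay between 636 and 759 bp before it in 11 libraries, and 47 bp after it in photoreceptor precursor replicate 1, which had a summit in the upstream site as well. Rps25 was thus bound upstream of its start in every cell type, and the end of Trappc4, a gene of vesicle transport, lies 166 bp from Rps25.

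Rpl29 encodes a small large-subunit protein and Rps20 a small-subunit protein of the head. At Rpl29 the summits lay 615 and 589 bp from the nearer end in plasmablasts, 600 and 638 bp in photoreceptor precursors and 611 and 607 bp in intestinal epithelium. The germ-lineage values were 614 and 634 bp in d2 PGCLC, 591 and 579 bp in d6 PGCLC, and 620 (male) and 603 bp (female) in E12.5 PGC. All 12 fell in 1 site of 59 bp, chr9:106429468-106429527, which was inside the gene. At Rps20 a site of 93 bp, chr4:3834955-3835048, held a summit of all 12 libraries, and the E12.5 male library had a second summit 75 bp from the gene end. Strand and start were not used for Rpl29 and Rps20, which had no entry in the promoter table.

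**Figure D4:**
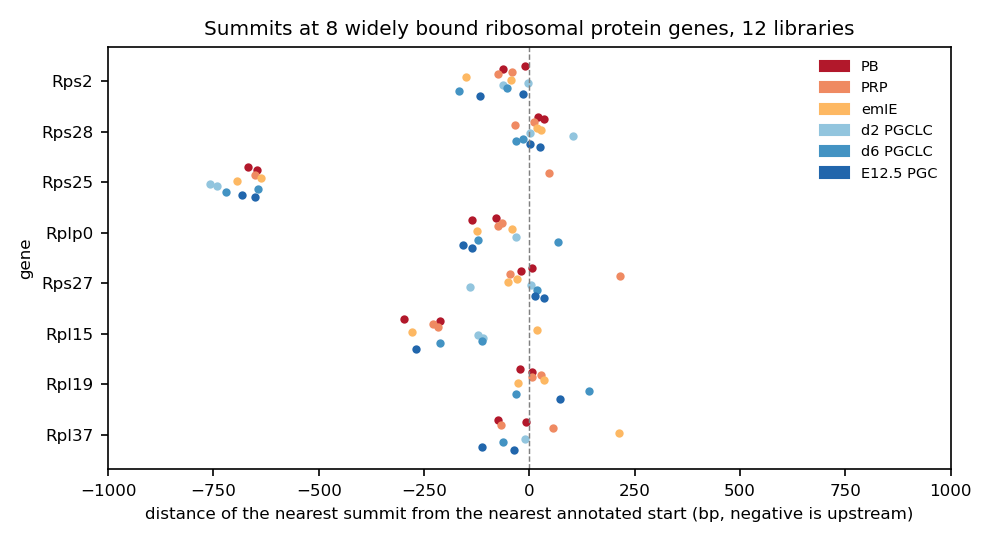
Position of each library's nearest summit relative to the annotated start at widely bound ribosomal protein genes, in bp with negative values upstream, one row for each gene and one point for each library, coloured by cell type. Rps28 summits lie within 104 bp of the start, Rps25 summits lie near 698 bp before it in 11 libraries, and Rps2 has a summit within 200 bp of the start in all 12 libraries.

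Rps2, whose product lies at the mRNA entry of the small subunit, had a summit at its start in every library but was not counted by gene ends. In the gene table its span begins 1942 bp before the annotated start, so both ends lay more than 1 kb from the summits. Relative to the start the summits lay 10 and 62 bp upstream in plasmablasts, 41 and 75 bp in photoreceptor precursors and 151 and 43 bp in intestinal epithelium. The germ-lineage summits lay 2 and 62 bp upstream in d2 PGCLC, 53 and 167 bp in d6 PGCLC, and 14 (male) and 117 bp (female) in E12.5 PGC. The shared site was chr17:24719896-24720061, and together with those of Rps28, Rps25, Rps20 and Rpl29 it made 5 genes with a site of all 12 libraries, against 3.70% of all genes. Counting any annotated start or either gene end brings the genes bound in all 6 cell types to 5.

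The same difference touched Rpl19, Rps27l and Rpl22, which were bound in 0 cell types by gene ends. By annotated start, Rpl19, a protein at the interface of the subunits, had a summit in 9 libraries and was bound in 4 cell types: plasmablasts, photoreceptor precursors, intestinal epithelium and d6 PGCLC. Its summits lay 23 bp before and 7 bp after the start in plasmablasts, and no library of d2 PGCLC and not the male E12.5 library had one within 1 kb. Rps27l, a paralogue of Rps27, had a summit in 7 libraries and was bound in plasmablasts and photoreceptor precursors by start. Rpl22, an RNA-binding protein of the large subunit, was bound in the same 2 cell types by start, with summits 30 and 102 bp after it in plasmablasts, and 71 bp before and 118 bp after it in photoreceptor precursors.

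At Rpl22 most germ-lineage libraries had their nearest summit elsewhere. It lay 1594 and 1564 bp before the start in d2 PGCLC, 1632 bp before it in d6 PGCLC replicate 2, and 1604 (male) and 1593 bp (female) before it in E12.5 PGC. The other d6 PGCLC library had a summit 133 bp after the start. These upstream summits lie outside the 1 kb window and entered none of the counts. They were looked at after the values were seen.

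The genes bound in 5 cell types were Rplp0, Rps27, Rpl15 and Rpl7, and each lacked a summit in 1 library. With the genes of all 6 types they made 8 genes bound in at least 5, against 3.76% of all genes, and the same 8 had a summit in 10 or more libraries (9.52%, against 4.41%). Rplp0 encodes the base of the stalk that binds translation factors. Its summits lay upstream of the start at 78 and 136 bp in plasmablasts, 66 and 75 bp in photoreceptor precursors and 40 and 124 bp in intestinal epithelium. Of the germ-lineage libraries, d2 PGCLC replicate 1 had none and replicate 2 had one 31 bp upstream, d6 PGCLC had one 123 bp upstream and one 67 bp downstream, and E12.5 PGC had summits 157 (male) and 137 bp (female) upstream. In 10 of the 11 libraries with a summit it thus lay before the start.

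Rps27, a zinc-finger protein of the small subunit, had plasmablast summits 6 bp after and 20 bp before its start, and d6 PGCLC replicate 2 was the library with none. The end of Rab13, a gene of membrane trafficking, lies 67 bp away. Rpl15, a structural protein of the large subunit, had summits between 109 and 298 bp before its start in 10 libraries, one 19 bp after it in intestinal epithelium replicate 1, and none in the male E12.5 library. It faces Nkiras1, an inhibitor of NF-kappa-B signalling, at 150 bp. Rpl7, an RNA-binding protein of the large subunit, had summits 14 and 34 bp from its nearer end in plasmablasts, between 7 and 102 bp in the other 9 libraries with one, and none in the male E12.5 library.

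Rpl3, which lies next to the peptidyl transferase centre and was bound in 4 cell types, had its summits at different places in different cell types. In plasmablasts they lay 53 and 99 bp from the nearer end. In the germ-lineage libraries they lay 687 and 588 bp from the nearer end in d2 PGCLC, 622 and 665 bp in d6 PGCLC, and 593 (male) and 644 bp (female) in E12.5 PGC. Intestinal epithelium replicate 2 had one at 29 bp, and neither photoreceptor precursor library had one within 1 kb. These were different ends of the gene: the summits of both plasmablast libraries fell in chr15:80083435-80083505, and those of all 6 germ-lineage libraries fell in chr15:80077094-80077193, where plasmablast replicate 1 and intestinal epithelium replicate 2 also had one. The positions were compared after the values were seen.

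The 6 genes bound in 3 cell types showed which types joined plasmablasts. Rps19, whose human counterpart is often mutated in Diamond-Blackfan anaemia, was bound in plasmablasts, photoreceptor precursors and intestinal epithelium. Its summits lay 363 and 63 bp from the nearer end in plasmablasts, 4 and 632 bp in photoreceptor precursors and 187 and 22 bp in intestinal epithelium, with d6 PGCLC replicate 1 at 24 bp the only germ-lineage library within 1 kb. Rps27a, made as a fusion with ubiquitin, had the same pattern, with summits at 262 and 63 bp in plasmablasts, 29 and 169 bp in photoreceptor precursors, 206 and 148 bp in intestinal epithelium and 467 bp in d6 PGCLC replicate 1. In both genes every somatic library had a summit and 1 of 6 germ-lineage libraries did.

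Of the other genes bound in 3 types, Rpl37, a zinc-binding protein of the large subunit, and Rps29, a zinc-binding protein of the small subunit, were bound in plasmablasts, photoreceptor precursors and E12.5 PGC. Rpl37 had plasmablast summits 75 and 8 bp before its start, and 51 bp separate it from Card6. Rps29 had plasmablast summits at 26 and 58 bp from its nearer end and E12.5 summits at 96 (male) and 0 bp (female). Rpl41, which encodes a very short basic protein, was bound in plasmablasts, d2 PGCLC and d6 PGCLC by gene ends, but in 0 cell types by start. Its PGCLC summits lay past the far end of the gene. They lay 1685 and 1654 bp after the start in d2 PGCLC, and 1381 and 1541 bp after it in d6 PGCLC. The plasmablast summits lay 1705 bp after and 42 bp before the start, and the end of Zc3h10 lies 102 bp from Rpl41. Rps9, a small-subunit protein, was bound in plasmablasts, photoreceptor precursors and d2 PGCLC. Its d2 PGCLC summits lay 812 and 971 bp past the far end of the gene, 3668 and 3827 bp after the start.

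Of the 10 genes bound in 2 cell types, 9 were bound in plasmablasts and photoreceptor precursors, among them Rpl4, Rpl27, Rpl31, Rplp2, Rps7 and Rps21. At Rpl4 the photoreceptor precursor summits lay past the far end of the gene, 5875 and 5827 bp after the start. The end of Zwilch lies 283 bp from Rpl4. Rps18 was bound in plasmablasts and intestinal epithelium, with the intestinal summits 594 bp after and 569 bp before its start. Rplp2, a stalk protein that recruits elongation factors, had plasmablast summits at 13 and 13 bp from its nearer end and photoreceptor precursor summits at 90 and 17 bp. Rplp1, its partner in the stalk, had plasmablast summits at 144 and 126 bp, with 1 photoreceptor precursor library at 232 bp, and was bound in no other type. All 22 genes bound in photoreceptor precursors were among the 72 of plasmablasts, of which they made up 30.6%, whereas for all protein-coding genes the overlap was 82.9% of the photoreceptor precursor genes and 20.2% of the plasmablast genes. Intestinal epithelium shared 10 genes with photoreceptor precursors, which is 90.9% of its own 11 and 45.5% of the 22, against 55.4% and 41.7% for all protein-coding genes.

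The 2 PGCLC stages shared 8 genes, 80.0% of those of d2 PGCLC and 88.9% of those of d6 PGCLC, against 76.6% and 66.2% for all protein-coding genes. E12.5 PGC shared 6 genes with d2 PGCLC and 6 with d6 PGCLC, in each case 66.7% of its own 9, against 79.2% and 82.2% for all protein-coding genes. Of the 13 ribosomal protein genes bound in a germ-lineage type, 0 lacked a summit in every somatic library, against 271 of 2710 protein-coding genes. With 13 genes a share such as that of all genes would leave few to count, so no difference can be read from it.

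Among the 12 genes bound in no cell type by gene ends, 6 had no summit within 1 kb in any library, which is 7.14% of the ribosomal protein genes against 40.3% of all genes. These were Rpl3l, Rpl10l, Rpl39l, Rpl32l, Rpl23a and Rps2, of which Rps2 is bound at its start as described above. Rpl3l is the striated-muscle paralogue of Rpl3, and Rpl10l and Rpl39l are testis paralogues of Rpl10 and Rpl39. Rpl39, which lines the exit tunnel, was bound in plasmablasts at 87 and 7 bp from its nearer end. Rpl23a had its nearest plasmablast summits 2009 and 1479 bp from a gene end and had no annotated start in the promoter table.

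Of the other paralogues, Rps27l was bound by start only, as described above, and Rpl22l1 and Rpl7l1 were bound in plasmablasts by gene ends. Rpl22l1, which can stand in for Rpl22, had summits 163 bp before and 153 bp after its start in the 2 plasmablast libraries. In the other 10 the nearest lay more than 1 kb away. Rpl7l1, a paralogue of Rpl7 that acts in ribosome assembly, had plasmablast summits at 31 and 71 bp, with 1 photoreceptor precursor library at 27 bp and 1 intestinal library at 105 bp. Rpl17, Rpl8 and Rps16 missed the call because 1 plasmablast library had no summit within 1 kb. Plasmablast replicate 2 had one 497 bp from Rpl17, 63 bp from Rpl8 and 16 bp from Rps16, while in replicate 1 the nearest lay at 1529, 3734 and 10958 bp.

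Across the genes with an annotated start, plasmablast summits stood close to it. The promoter table held a start for 64 of the 84 genes. The median distance between the start and the nearest summit within 1 kb was 63.5 and 67.0 bp in the 2 plasmablast libraries, against 154 and 140 bp for all protein-coding genes. Within 100 bp of the start lay 64.4% to 69.0% of the plasmablast summits, against 36.1% to 38.9% for all genes. In the other 10 libraries the medians at ribosomal protein genes were between 5.0 and 124 bp, over 5 to 30 genes a library, against 159 to 254 bp for all genes. Ribosomal protein genes are short, with a median length of 3179 bp against 17169 bp for all protein-coding genes, and whether length bears on these distances was not tested.

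**Figure D5:**
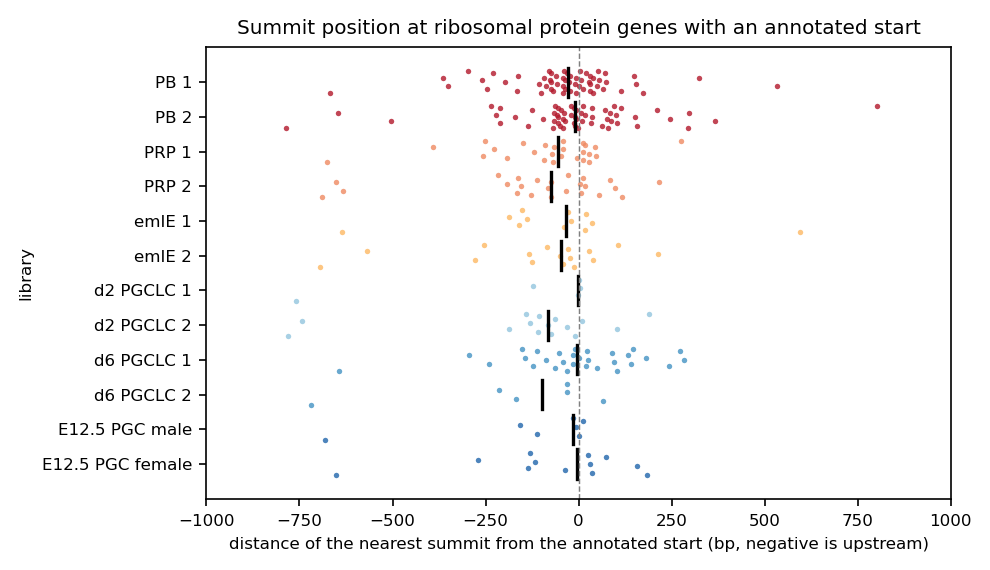
Distance of the nearest summit from the annotated start, in bp, negative values upstream, for ribosomal protein genes with a summit within 1 kb in each of the 12 libraries. Each point is a gene and each vertical bar the median signed distance of a library. Plasmablast summits gather at the start, with median unsigned distances of 63.5 and 67.0 bp, and the other libraries have fewer points, between 5 and 30 each.

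By annotated start alone, 57 of the 64 genes were bound in plasmablasts (89.1%, against 41.9% of all genes with a start) and 18 in photoreceptor precursors (28.1%, against 10.4%). Intestinal epithelium had 9 (14.1%, against 7.53%). Of the germ-lineage types, d2 PGCLC had 5 (7.81%, against 8.11%), d6 PGCLC had 6 (9.38%, against 9.38%) and E12.5 PGC had 6 (9.38%, against 5.84%). In both PGCLC types the start-based share did not exceed that of all genes. Nearer to the start than to the far end of the gene lay 96.4% of the plasmablast summits, against 93.1% for all genes, and 77.3% of the d2 PGCLC summits, against 85.1% for all genes, with no test made.

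The 2 libraries of a cell type mostly marked the same place. In the 133 cases of a ribosomal protein gene bound in a cell type, the nearest summits of the 2 libraries lay within 200 bp of each other in 117 (88.0%, against 82.6% for all genes), with a median gap of 51 bp against 64 bp. Among germ-lineage types all 10 cases of d2 PGCLC, all 9 of d6 PGCLC and all 9 of E12.5 PGC met this distance. In plasmablasts 63 of 72 did (87.5%, against 79.8% for all genes). Photoreceptor precursors, with 17 of 22 (77.3%, against 88.7%), and intestinal epithelium, with 9 of 11 (81.8%, against 83.1%), stood below the share of all genes. When summits of the 12 libraries at most 200 bp apart were joined, 216 sites lay between 1 kb before and 1 kb after the genes, and 116 of them came from a single library. Of these sites 54 were bound in plasmablasts only and 9 in 5 or 6 cell types. The same site counts over all genes are not given here, so these numbers describe the sites only.

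Many ribosomal protein genes stand next to another gene, so a summit near a start can also be near that of a neighbour. The end of another protein-coding gene lay in the window of 30 of the 84 genes. Of these 30, 27 were bound in plasmablasts and 12 (40.0%) in 2 or more cell types. Of the 54 genes with no such neighbour, 45 were bound in plasmablasts and 13 (24.1%) in 2 or more cell types. Binding was thus listed at genes that stand alone too, and which gene of a pair it concerns cannot be told apart. Genes with a small nucleolar RNA gene inside them numbered 30, of which 26 were bound in plasmablasts, against 46 of the 54 without one. These counts were 7 and 15 in photoreceptor precursors, and 1 and 10 in intestinal epithelium. They were 2 and 8 for d2 PGCLC, 2 and 7 for d6 PGCLC, and 3 and 6 for E12.5 PGC. The gap was widest in intestinal epithelium (3.33%, against 18.5%) and small in E12.5 PGC (10.0%, against 11.1%), and no test was made.

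Ribosomal protein pseudogenes, which are processed copies with near-identical sequence but without the promoter, were almost free of summits. Of 318 such pseudogenes, 1 was bound in plasmablasts, 2 in photoreceptor precursors, 0 in intestinal epithelium, 0 for d2 PGCLC, 2 for d6 PGCLC and 1 for E12.5 PGC. The shares were 0.314% in plasmablasts against 2.00% of all pseudogenes, 0.629% in photoreceptor precursors against 0.509%, and 0 in intestinal epithelium against 0.415%. In the germ-cell lineage they were 0 for d2 PGCLC against 0.933%, 0.629% for d6 PGCLC against 0.886%, and 0.314% for E12.5 PGC against 0.773%. Outside plasmablasts, counts of 0 to 2 do not separate them from other pseudogenes. The sources used here do not say how reads matching several copies were treated.

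Letters of the promoters were counted over 300 bases, from 250 before to 50 after the start, in 76 starts of the 64 ribosomal protein genes and in 21263 starts of all genes. Because the table covers 76.2% of the 84 genes, under 80%, the comparison is void as a statement on the whole family, and the shares describe the covered starts only. GAAAG or its reverse complement was present in 61 of the 76 starts (80.3%, against 55.0% of all starts). The longer forms, which contain it, were present in 40.8% for GNGAAAG, against 22.1%, in 18.4% for AGNGAAAG, against 8.07%, and in 3.95% for GAAAGTG, against 4.63%. CTTTC on the gene's strand between bases -5 and +15, where the pyrimidine run of these transcripts lies, was present in 14 starts (18.4%, against 2.19%), and each such match also counts as GAAAG.

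Letters of common promoter elements were searched on both strands. CTTCCG, part of the ETS-family recognition sequence, was present in 45 starts (59.2%, against 21.1% of all starts). ATGGCG, part of the YY1 recognition sequence, was present in 24 (31.6%, against 10.9%). GGGCGG, the GC box, was present in 45 (59.2%, against 46.2%), and TATAAA in 8 (10.5%, against 12.6%). Of the stretches printed above, those of Rps28, Rps27, Rpl15 and the unbound Rpl39l hold cttccg or its reverse complement cggaag, and those of Rps28, Rps27 and Rpl39l hold atggcg or its reverse complement cgccat.

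Other genes of protein synthesis were also bound mostly in plasmablasts, and no test of a difference between lists was made. For all the lists below, the shares of all protein-coding genes were 39.7% in plasmablasts, 9.68% in photoreceptor precursors and 7.29% in intestinal epithelium. They were 8.41% for d2 PGCLC, 9.72% for d6 PGCLC and 5.79% for E12.5 PGC. A summit in all 12 libraries was found at 2.28% of all protein-coding genes. Of 43 translation initiation and elongation factors, 35 were bound in plasmablasts (81.4%), 9 in photoreceptor precursors (20.9%) and 10 in intestinal epithelium (23.3%). There were 4 for d2 PGCLC (9.30%), 8 for d6 PGCLC (18.6%) and 3 for E12.5 PGC (6.98%). Of 56 ribosome assembly factors, 46 were bound in plasmablasts (82.1%), 16 in photoreceptor precursors (28.6%) and 9 in intestinal epithelium (16.1%). The 5 for d2 PGCLC (8.93%) and the 3 for E12.5 PGC (5.36%) were near the share of all genes, and d6 PGCLC had 8 (14.3%). Tpt1, a translation-linked growth protein, and Eif6, which keeps the subunits apart, had a summit in all 12 libraries. So did the assembly factors Pes1 and Mphosph10, which act on rRNA processing, and Lsg1, a GTPase of late large-subunit export.

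Of the 18 matched genes of RNA polymerase I and rRNA transcription, 14 were bound in plasmablasts (77.8%), 4 in photoreceptor precursors (22.2%) and 3 in intestinal epithelium (16.7%). The germ-lineage counts were 3 for d2 PGCLC (16.7%), 4 for d6 PGCLC (22.2%) and 3 for E12.5 PGC (16.7%). Myc, an activator of ribosome production, and Polr1d, a subunit shared by RNA polymerases I and III, had a summit in all 12 libraries. Of 10 fused and additional ribosomal proteins, 6 of which are also among the 84, all 10 were bound in plasmablasts. Rack1, a scaffold on the small subunit, had a summit in 5 libraries and was bound in plasmablasts and d2 PGCLC. Fau, a fusion that yields a small-subunit protein, had a summit in 3 libraries and was bound in plasmablasts only. Both genes lie outside the naming rule.

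The 78 mitochondrial ribosomal protein genes and the 36 genes of the constitutive proteasome were bound mostly in plasmablasts as well. There 62 of the mitochondrial genes (79.5%) and 30 of the proteasome genes (83.3%) were bound, beside 85.7% of the cytosolic ribosomal protein genes and 39.7% of all genes. In photoreceptor precursors the shares were 12.8% and 27.8%, beside 26.2% and, for all genes, 9.68%. Outside plasmablasts and photoreceptor precursors the mitochondrial genes were bound near the share of all genes. There were 6 in intestinal epithelium (7.69%, against 7.29%) and 5 for d2 PGCLC (6.41%, against 8.41%). For d6 PGCLC there were 8 (10.3%, against 9.72%) and for E12.5 PGC 4 (5.13%, against 5.79%). The proteasome genes had 6 in intestinal epithelium (16.7%), 7 for d2 PGCLC (19.4%), 6 for d6 PGCLC (16.7%) and 7 for E12.5 PGC (19.4%). These shares were above those of all genes and of the cytosolic ribosomal protein genes in the same types. Mrps33 and Mrps27, of the small mitochondrial subunit, and the proteasome genes Psmb3, Psma4 and Psmb1 had a summit in all 12 libraries, as did 2.28% of all genes.

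Gene by gene, no difference between groups passed adjustment over the 21887 protein-coding genes. Each gene was tested by an exact permutation of the libraries (Fisher's exact test, two-sided) with Benjamini-Hochberg adjustment. In plasmablasts against the other cell types, 0 genes were called (percent called 0), and with 2 libraries against 10 the smallest p the design allows is 0.0152, which gave a smallest adjusted p of 0.161. Before adjustment, at p below 0.05, 33 ribosomal protein genes (39.3%, against 18.1% of all genes) had a summit more often in plasmablasts and 0 less often (against 0.155% of all genes). In somatic against germ-lineage libraries, 6 against 6, 0 genes were called (percent called 0), the smallest possible p was 0.00216 and the smallest adjusted p was 0.911.

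Before adjustment, Rps19 and Rps27a were the ribosomal protein genes with a summit more often in somatic than in germ-lineage libraries, in 6 of 6 against 1 of 6 libraries each (exact permutation p 0.0152, adjusted p 1.00). That is 2.38% of the ribosomal protein genes, against 0.489% of all genes. In the opposite direction there were 0 ribosomal protein genes, against 0.507% of all genes. Libraries of 1 cell type are not independent of each other, and these p-values measure the spread between libraries only.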

How the data were processed

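EGFP-BLIMP1 ChIP-seq summit lists of 12 libraries were used, without the input library. The build mm10 and the tools MACS2 2.1, Bowtie 1.1.2, cutadapt 1.7.1 and Trim Galore 0.3.7 are named in the submitters' processing notes. The deposited lists give the chromosome and position of each summit per library, with no height, score or p-value, so the values used are positions alone. The sources used here do not give the threshold, the calling control, the read depth or whether positions begin at 0 or 1, and printed positions may be off by 1 bp.

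Genes and ends came from the RefSeq gene table of GRCm38.p6, whose coordinates are those of mm10, on chromosomes 1 to 19, X and Y. Starts, strand and promoter letters came from its promoter table. A summit counted within 1 kb of either gene end, and binding needed both libraries of a cell type. Shares have 95% Clopper-Pearson intervals. Reduction to the shortest list used the hypergeometric expectation. The somatic against germ-lineage test was tested on simulated data.

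Genes are named by number of libraries with a summit (the 20 highest), absence of plasmablast summits, paralogy and per-gene p, and further members illustrate a class. Some genes are left unnamed in the text, and not every member is drawn in the plot by library. From each list of other genes, up to 4 with the most libraries are named. The members, lists and tests were chosen with earlier results of these data known. Merged sites and the start-or-end count were added after the data were seen.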

Additional observations from a re-analysis of the deposited data

How the results depend on the processing

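The number of ribosomal protein genes bound depends on the window, on the rule for replicates and on list length. Within 0.5 kb the count was 7 in intestinal epithelium, 4 for d2 PGCLC, 5 for d6 PGCLC and 5 for E12.5 PGC, and 1 gene was bound in all 6 types. Counting annotated starts only gave 5 in d2 PGCLC. A summit in either library gave 39 in photoreceptor precursors and 28 in intestinal epithelium. The counts were 21 for d2 PGCLC, 43 for d6 PGCLC and 18 for E12.5 PGC, with 9 genes in all 6 types. Shares of all genes under the either-library rule are not given here, so these counts describe the rule and not a trait of ribosomal protein genes. Lists reduced to the shortest gave 4.89 in plasmablasts, 9.58 in photoreceptor precursors, 1.48 for d2 PGCLC, 0.614 for d6 PGCLC and 2.84 for E12.5 PGC, since fewer summits remain. Genes without another gene's end in the window gave 45 in plasmablasts, 12 in photoreceptor precursors, 5 in intestinal epithelium, 5 for d2 PGCLC, 5 for d6 PGCLC and 5 for E12.5 PGC, from 54 genes. With 1 library of a type left out, counts ran from 72 to 76 in plasmablasts, 30 to 31 in photoreceptor precursors, 14 to 25 in intestinal epithelium, 10 to 21 in d2 PGCLC, 9 to 43 in d6 PGCLC and 12 to 15 in E12.5 PGC, and from 4 to 6 for all 6 types. The 43 is the count without d6 PGCLC replicate 2. Summits of both libraries lay within 100 bp in 69.2% and within 400 bp in 95.5% of cases. Beyond the smaller number of genes or summits an alternative leaves, the cause of a change was not tested. Libraries of different cell types share a replicate number, and correlations of same-numbered deviations ran from -0.19 to 0.042. Whether same-numbered libraries were handled together cannot be told from these correlations. With the replicate number as a block, 0 ribosomal protein genes were called in either per-gene comparison, with a smallest adjusted p of 1.00 for somatic against germ lineage and 0.407 for plasmablasts against the other types, and a smallest possible p of 0.0100 and 0.0400. Before adjustment, 17 ribosomal protein genes were below 0.05 with the block for plasmablasts against the other types, against 33 without it. For somatic against germ lineage there were 2 with and 2 without it. Without the block, 18.1% of all genes had a summit more often in plasmablasts at this threshold. The share of all genes with the block is not given here, so nothing particular to ribosomal protein genes can be read from those counts. The block leaves out the E12.5 PGC libraries, which carry no shared number. Reduced lists also changed the order of cell types, with plasmablasts below photoreceptor precursors and intestinal epithelium (7.49). The share of ribosomal protein genes fell below that of all genes in d2 PGCLC within 0.5 kb (4.76%, against 5.30%) and by start (7.81%, against 8.11%), and in d6 PGCLC with reduced lists (0.731%, against 0.876%). In all, 94 alternative values stayed close to the value reported and 29 moved. The 94 include the per-gene comparisons, where the smallest possible p left little room for a call. They also include changes such as 22 to 30 or 31 in photoreceptor precursors with 1 library left out. The tally is therefore no measure of how stable the counts are.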
